A study of Mus musculus with 6 samples.

Results

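Villus-tip enterocytes are the absorptive cells at the luminal end of the intestinal villus. Enterocytes arise in the crypts, move up along the villus and are shed near its tip, and their RNA content changes along the way. Cells low on the villus are known for antimicrobial genes, whereas tip cells are known for genes of purine metabolism, lipoproteins, cell adhesion and immediate-early transcription factors. A set of 5 tip genes was used here to choose the cells. Nt5e encodes the surface enzyme that makes adenosine from AMP, Ada the deaminase that turns adenosine into inosine, and Slc28a2 a sodium-coupled importer of purine nucleosides, while Clca4a belongs to the CLCA family of secreted or surface proteins and Ly6m to the Ly6 family of surface proteins.

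Mucosal cells of the small intestine from 3 control littermates and 3 mice labelled IE-HuR-/- were sequenced as 6 droplet libraries, with RNA molecules counted by their unique molecular identifiers (UMIs). IE-HuR-/- mice had been made by crossing HuR fl/fl mice with mice that express Cre from the villin promoter, which is active throughout the intestinal epithelium and not at the tip alone. The controls carried the floxed alleles without Cre per the study's methods, whereas their labels call them wild type. Per the methods all mice were C57BL/6, between 6 and 8 weeks old, and had been without food for 24 h, whereas the labels name normal feeding. Nothing in the labels says which libraries were prepared together, so that a batch shared by the libraries of a label cannot be told apart from the label, and p-values measure the spread between these libraries.

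The deposited tables held 60706 barcodes and 428980031 UMIs, with between 59518012 and 91818560 UMIs per library. A barcode was kept as an enterocyte with at least 5000 UMIs, at most 30% of them mitochondrial, no UMI of the leukocyte gene Ptprc, under 0.2% of UMIs on the mucin gene Muc2, and UMIs of at least 4 of the 6 enterocyte genes Alpi, Lct, Mep1a, Mttp, Treh and Slc5a1. Of the 9197 barcodes that passed, 6666 also had a UMI of at least 3 of the 5 tip genes (exactly 3 in 2292) and are called tip cells below. They made up 10.98% of all barcodes and held 176465302 UMIs. The control libraries gave 1237, 1685 and 782 tip cells for replicates 1, 2 and 3, and the libraries labelled IE-HuR-/- gave 1005, 977 and 980. A further 2448 enterocytes had 1 or 2 of the 5 genes, and 83 had none, of which 61 came from the controls and 22 from the libraries labelled IE-HuR-/-. Those 83 cells with 1478978 UMIs are the enterocytes with which tip cells were compared. The median depth of tip cells was between 17512 and 26705.5 UMIs per library, and that of enterocytes with none of the 5 genes between 9018 and 23984.5, so each comparison was repeated with every cell thinned to 5000 UMIs before the genes were counted. Between 22 and 44 barcodes were shared by any pair of libraries, and at most 2 of those were tip cells in both. No doublet caller was run, and the tip cells were read also without cells that held other cell types' markers.

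Elavl1, the gene that encodes HuR, was not lower in tip cells of the libraries labelled IE-HuR-/-. In CPM, the share of UMIs brought to a fixed total for each library, and after edgeR's TMM scaling between libraries, its level was 26.5, 28.7 and 25.5 CPM in the controls and 30.4, 30.6 and 29.98 CPM in the others. Its log2 difference was 0.17 (standard error 0.0572, edgeR adjusted p = 0.0203) with TMM, -0.015 without it (adjusted p = 0.841) and -0.090 in thinned cells (adjusted p = 0.656). The direction thus depends on the scaling. Because these counts lie on the whole gene and cannot show which exons were deleted, directions given below rest on the labels of the libraries.

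The 5 genes lie on mouse chromosomes 2, 3, 9 and 15 (GENCODE annotation of GRCm38, all protein coding). Ada spans chr2:163726584-163750239 on the minus strand and Slc28a2 chr2:122426477-122461137 on the plus strand. Nt5e spans chr9:88327197-88372092 on the plus strand. Clca4a spans chr3:144952480-144975045 and Ly6m chr15:74876987-74897021, both on the minus strand. Counts here are sums over whole genes, so their values do not separate exons or transcripts.

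The values that chose the cells are given as a description, in CPM without TMM scaling. Over the 6 libraries tip cells had between 3088 and 4525 CPM of Ada, between 3146 and 4658 CPM of Clca4a, between 1047 and 1488 CPM of Ly6m, between 612 and 878 CPM of Slc28a2 and between 218 and 384 CPM of Nt5e. Ada was detected in 98.2 to 98.9% of them and Nt5e in 39.9 to 48.7%. A UMI of a tip gene did not by itself mark a tip cell. Among 3051 barcodes with T cell genes, which should lack Clca4a and had median depths between 6047 and 6439 UMIs, 59.5 to 83.6% held a Clca4a UMI and 60.6 to 83.6% an Ada UMI. Among the enterocytes with 1 or 2 of the 5 genes, 69.5 to 79.6% held an Ada UMI and 71.5 to 76.3% a Clca4a UMI, within the range of the T cell barcodes. In 61.5 to 73.1% of the cells with exactly 2 of the 5 genes, those were Ada and Clca4a. Ly6m was detected in 23.1 to 45.4% of T cell barcodes and in 73.3 to 85.6% of tip cells. Slc28a2 was detected in 51.3 to 64.9% of T cell barcodes against 74.8 to 85.6% of tip cells, and Nt5e in 48.1 to 59.4% against 39.9 to 48.7%, so that Nt5e was detected no more often in tip cells. Only Clca4a is taken here as absent from T cells. For the other genes, RNA of the T cells themselves cannot be told apart from RNA that came from other cells.

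Cells just outside and just inside the threshold are given as a description as well. Cells with exactly 2 of the 5 genes had a mean over the libraries of 237 CPM of Ada and 8.53 CPM of Ly6m, and cells with exactly 3 had 596 and 77.0 CPM. The latter, 2292 of the 6666 tip cells, had 749 CPM of Clca4a, 61.8 CPM of Slc28a2 and 8.18 CPM of Nt5e. T cell barcodes had 392 to 1045 CPM of Ada, 408 to 1048 of Clca4a, 101 to 418 of Ly6m, 125 to 296 of Slc28a2 and 134 to 211 of Nt5e. Tip cells with exactly 3 genes thus lay within or below the levels of T cell barcodes. Those levels may hold RNA of the T cells themselves and are no common background. Nt5e was between 0.675 and 3.81 CPM in enterocytes with 1 or 2 of the genes, which the rule also sorted. Cells with all 5 had 9002 CPM of Ada, 8217 CPM of Clca4a, 3075 CPM of Ly6m, 1831 CPM of Slc28a2 and 921 CPM of Nt5e. Cells were sorted by detection of these same genes, so the order of these levels is set by the sorting.

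**Figure D1:**
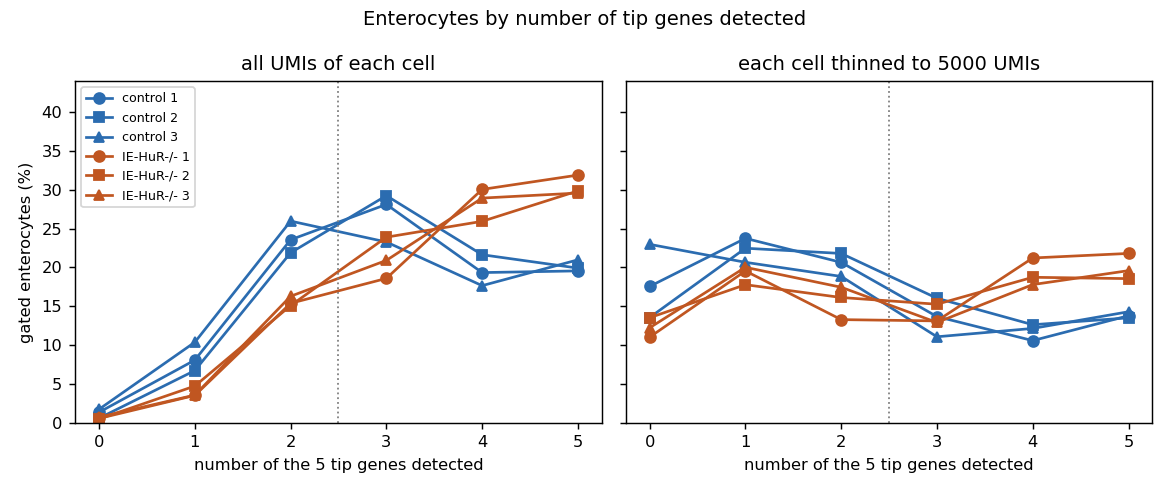
Gated enterocytes by the number of the 5 tip genes with a UMI (horizontal axis, 0 to 5), as deposited and with each cell thinned to 5000 UMIs; each line is 1 library, with the percent of its gated enterocytes on the vertical axis. In both panels the libraries labelled IE-HuR-/- lie lower than the controls at 1 and 2 genes and higher at 4 and 5 genes, and as deposited the labels overlap at 0 genes.

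Each tip gene was then read in cells chosen without it, as those with at least 3 of the other 4 genes against those with none of the other 4. All 5 genes were higher in the cells chosen by the other 4, in 6 of 6 libraries. Ly6m was between 1217 and 1634 CPM in the former and between 10.9 and 34.3 CPM in the latter, a log2 ratio of 6.22 ± 0.757 (SD, n = 6 libraries, pseudocount 1 CPM, two-sided exact sign-flip permutation test, adjusted p = 0.03125). Ada was between 4636 and 6677 CPM against 65.4 to 312 CPM, a log2 ratio of 5.85 ± 0.970. Slc28a2 had a log2 ratio of 5.68 ± 0.750, Nt5e of 4.94 ± 1.07 and Clca4a of 4.88 ± 0.617. The p of 0.03125 was the same for all 5 genes, is the smallest that 6 libraries allow and adds nothing to the count of libraries. Cells with none of the other 4 were few, from 92 over all libraries for Nt5e to 340 for Clca4a. The 5 RNAs were thus high in the same cells. They were chosen together as tip genes with earlier results of these data known, so this is a description and no support for the rule. With thinned cells the log2 ratios were 7.10 for Ly6m, 6.38 for Slc28a2, 6.19 for Nt5e, 5.77 for Ada and 4.96 for Clca4a.

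Tip cells made up 67.0, 70.8 and 61.9% of gated enterocytes in the control libraries and 80.5, 79.7 and 79.4% in those labelled IE-HuR-/-, so that the labels did not overlap. The means were 66.6 ± 4.46% (SD, n = 3) and 79.9 ± 0.580% (SD, n = 3), a difference of 13.3 percentage points. In thinned cells the means were 39.2 ± 2.55% and 53.0 ± 2.95%. The share is what the rule itself counts, and it is given with no test. The levels of the 5 genes by label, which the rule also used, are given in the same way. Ly6m was 1057, 977 and 1219 CPM after TMM scaling in the controls and 1586, 1517 and 1518 CPM in the others, a log2 difference of 0.51. The log2 differences of Clca4a, Nt5e, Ada and Slc28a2 were 0.50, 0.51, 0.42 and 0.43. A higher share of cells past a count of detected genes and more RNA of these genes per cell cannot be told apart.

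Which other RNAs accompany the 5 genes was asked by comparing tip cells with the enterocytes that had none of them, within each library. All RNAs were read in the cells that the 5 genes had sorted, so the contrast describes what travels with these genes. Of 10076 RNAs tested, 23.3% were called at an adjusted p under 0.05, 16.4% higher and 6.86% lower in tip cells, and the median log2 difference of all RNAs was 0.29. Of these RNAs, 1238 had at most 3 UMIs in all cells with none and passed the filter only through tip cells; 130 of them were called, all higher, so the split between higher and lower calls is not read as a result. Without TMM scaling the median was 0.0068 and the calls were 928 higher and 1183 lower in place of 1657 and 691. In thinned cells, where 6 libraries gave between 132 and 322 cells with none of the 5 genes, 70.8% of 7328 RNAs were called, 34.5% higher and 36.3% lower. Against the enterocytes with at most 1 of the 5 genes, 47.4% of 10844 RNAs were called, 27.2% higher and 20.2% lower. Levels in this comparison are CPM after TMM scaling over the 12 sums, and ratios of UMIs summed over libraries are without it.

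The 12 largest rises were ranked by edgeR's fitted log2 difference. For an RNA with no UMI in the cells with none of some libraries, such as Dipk2a and Gas2l3 in the 3 libraries labelled IE-HuR-/-, that value depends on the prior count and is no measure of fold. Ratios of summed UMIs are therefore given. They weigh the labels unequally, since 61 of the 83 cells with none were from controls, and give no ranking. Cldn4, described with the junction genes, had a ratio of 95.4 without being among the 12. Of the 12, 8 were spread over many tip cells. Slc23a4, a member of the ascorbate and nucleobase transporter family, was 364, 303 and 422 CPM in control tip cells and 429, 419 and 405 CPM in tip cells labelled IE-HuR-/-, against at most 5.33 CPM in enterocytes with none of the 5 genes of any library. Summed over libraries the level per UMI was 85.4 times higher (95% counting interval 39.2 to 233), and 70.0% of tip cells held a Slc23a4 UMI. With 6 UMIs in all cells with none, Slc23a4 passed the filter only through tip cells, and these values are given as a description. Clic4, a member of the chloride intracellular channel family, had 2 UMIs in cells with none and passed the filter only through tip cells. Its ratio of 59.0 (16.3 to 487) is given as a description. Pmepa1, a transmembrane inhibitor of TGF-beta signalling, was 20.1 times higher (11.96 to 36.7), and Utp14b 15.9 times higher (7.29 to 43.2). Egfr, the receptor of epidermal growth factor, was 9.42 times higher (4.78 to 21.8). Marcks, an actin-binding protein kinase C substrate, was 6.99 times higher, Gas2l3, a linker of actin and microtubules, 5.24 times and Dipk2a 3.82 times. In thinned cells, with more cells on the lower side, the log2 differences were 6.67 for Slc23a4, 6.49 for Utp14b, 5.77 for Clic4, 5.71 for Pmepa1 and 4.48 for Egfr, all called.

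The other 4 of the 12 largest rises, Cck, Pyy, Ghrl and Reg4, are RNAs of hormones or secretory cells and lay in few cells. Each had 2 UMIs in all cells with none and passed the filter only through tip cells. Cck, the hormone cholecystokinin, was detected in 10.5% of tip cells, but the 10 richest cells held 61.0% of its UMIs. The 10 richest cells held 60.3% of the Pyy UMIs, 71.7% of those of Reg4 and 87.4% of those of Ghrl. Their sums therefore rested on a handful of barcodes. Without cells that had at least 0.5% of UMIs on markers of other cell types, none of the 4 was called, while the other 8 rises kept their calls. Cck is itself among these markers, next to other hormone genes, so this outcome was largely set by the filter. The fit without these cells is given as a description. The fitted log2 differences were then 5.17 for Cck (adjusted p = 0.123), 5.24 for Pyy (0.0999), 5.19 for Reg4 (0.121) and 5.15 for Ghrl (0.117). Against enterocytes with at most 1 of the 5 genes none of the 4 was called either. Log2 differences there were between 2.05 and 4.97 and adjusted p between 0.0893 and 0.56. Without TMM scaling, enteroendocrine markers summed to between 697 and 3283 CPM in tip cells of the 6 libraries and between 42.4 and 119 CPM in the cells with none, and goblet markers to between 453 and 926 CPM and between 263 and 386 CPM. Paneth markers summed to between 37.1 and 7235 CPM against 0 to 73.4 CPM, and erythroid markers to between 20.1 and 3259 CPM against 19.8 to 75.4 CPM, so that these ranges overlapped. Some of these markers passed the filter only through tip cells, since in the cells with none of all libraries Neurod1 had 0 UMIs, Cck 2, Defa30 4 and Hba-a1 6, and no count of calls is given for these lists. The part of mixed barcodes in these rises was not tested beyond this.

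All 12 of the largest falls were called also in thinned cells, against enterocytes with at most 1 of the 5 genes and without cells with other cell types' markers. Gsta1, a glutathione transferase, was 643, 525 and 408 CPM in control tip cells and 493, 585 and 544 CPM in tip cells labelled IE-HuR-/-, against 1770, 979 and 568 CPM and 2654, 3095 and 874 CPM in enterocytes with none of the 5 genes of the same libraries. The level was lower in tip cells of each library, with a log2 difference of -1.41 (standard error 0.131, adjusted p = 3.35e-21), and by -2.98 in thinned cells. Gsta4, another transferase, differed by -1.32, Gpx1, a glutathione peroxidase, by -1.35 and Akr1c19, an aldo-keto reductase, by -1.59. Aadac, a lipid deacetylase, differed by -1.43, Acaa2, the thiolase of mitochondrial beta-oxidation, by -1.22 and Rdh7, a retinol dehydrogenase, by -1.21. Fabp6, the bile acid-binding protein of ileal enterocytes, had the largest fitted fall, of 1.67 on the log2 scale (standard error 0.132), but in thinned cells its difference of -1.36 was the smallest of the 12, and in cells with at most 15% mitochondrial UMIs it was not called (-0.94, adjusted p = 0.632). Il18, an epithelial cytokine, fell by 1.52. Nme2, Svip and Ppp1r1b fell by between 1.22 and 1.23. These are single genes. Of the 11 genes of xenobiotic oxidation 3 rose and none fell in this comparison, beside 16.4% and 6.86% of all RNAs. In thinned cells 2 rose and 9 fell, beside 34.5% and 36.3% of all RNAs.

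**Figure D2:**
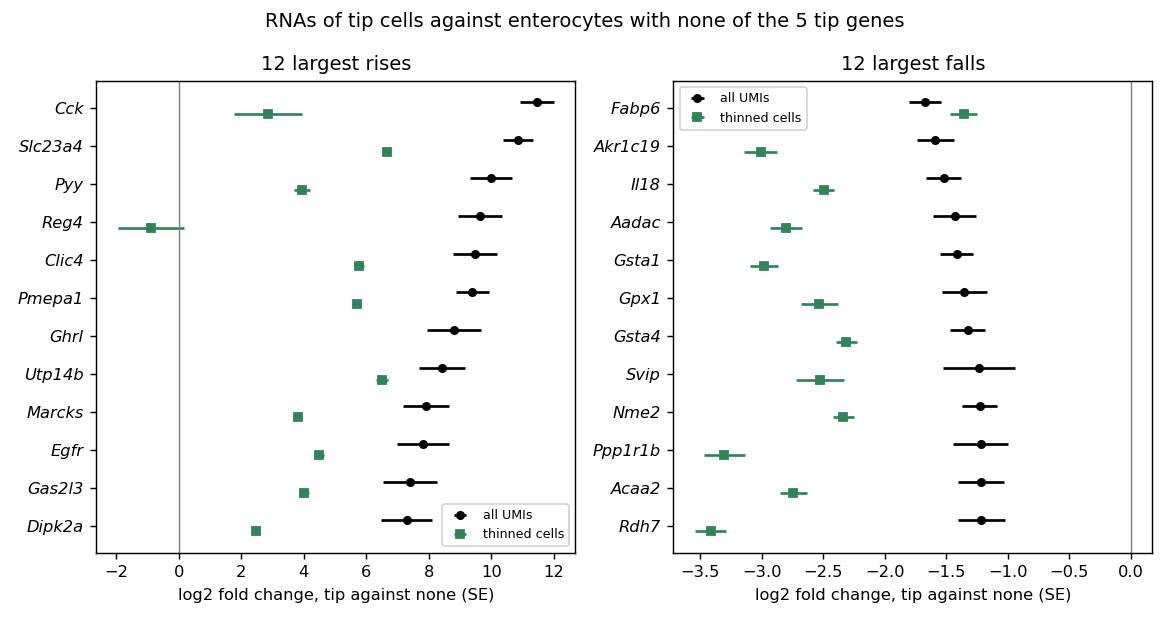
Log2 difference between tip cells and enterocytes with none of the 5 genes for the 12 largest rises and 12 largest falls by edgeR's fit on sums per library; black circles are from all UMIs, green squares from cells thinned to 5000 UMIs, and bars are 1 standard error. After thinning the rises are smaller, that of Reg4 is opposite, Ghrl is not shown since it did not pass the filter, and all falls but that of Fabp6 are larger.

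Genes known from the villus tip were higher, and most genes known from the lower villus lower, in tip cells. All 10 villus-tip landmarks outside the rule were higher in tip cells, with a median log2 difference of 1.66 beside 0.29 for all RNAs, and 10 of 10 also in thinned cells (median 1.71) and with DESeq2. Apoa4, the lipoprotein of chylomicrons and a textbook tip gene, was 19826, 18918 and 23439 CPM in control tip cells against 5779, 9866 and 8917 CPM in the cells with none, and 17757, 18644 and 17886 CPM against 2267, 5087 and 1216 CPM in the libraries labelled IE-HuR-/-. Every library was higher in tip cells, with a log2 difference of 2.13 (adjusted p = 6.59e-45). Enpp3, a surface phosphodiesterase that splits nucleotides, rose by 3.61 and Apob, the scaffold of chylomicrons, by 1.71. Of the 8 antimicrobial and immune genes known from the lower villus, 6 fell and none rose (median -1.01), and all 8 fell in thinned cells (median -2.81). Lypd8, a secreted protein that keeps bacteria off the epithelium, fell by 1.18, and Reg3b, an antimicrobial lectin, by 0.68. Reg3b was not called with DESeq2 (-0.85, adjusted p = 0.14) or in cells with at most 15% mitochondrial UMIs (-0.30, adjusted p = 0.0955). Both were lower in tip cells of 5 of 6 libraries. In control replicate 3 Reg3b was 2237 CPM in tip cells and 1323 CPM in cells with none, and the list summed to 4370 and 3475 CPM without TMM scaling. Without IE-HuR-/- replicate 1 Lypd8 was not called, at a similar difference (-1.15, adjusted p = 0.244).

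Most genes of junctions and most immediate-early factors rose. Of 19 tested genes of junctions and adhesion 16 were higher and 1 lower (median 1.15), and of 18 tested in thinned cells 16 were higher and 1 lower. Cldn4, a tight junction claudin, was between 330 and 517 CPM in tip cells of the 6 libraries and between 0 and 16.5 CPM in the cells with none. With 6 UMIs in all cells with none it passed the filter only through tip cells, so its values are given as a description. Its fitted log2 difference of 6.74 depends on the prior count and is no measure of fold. Summed over libraries the level per UMI was 95.4 times higher (95% counting interval 43.8 to 260, on 6 UMIs in cells with none). In thinned cells the fitted log2 difference was 7.15. Dsp, the desmosomal linker desmoplakin, rose by 2.39, and Epcam, an adhesion molecule of epithelial cells, by 1.15. Of 15 immediate-early and KLF factors 12 rose and none fell (median 1.30), and of the same 15 in thinned cells 13 rose and 1 fell. Jun was between 363 and 578 CPM in tip cells and between 36.7 and 155 CPM in cells with none (log2 difference 2.23). Atf3, a stress-induced factor, rose by 2.96 and Klf4, a factor of terminal differentiation, by 1.60. Of 14 genes of the microvillus core and keratins 8 rose and 1 fell, with Krt20, the keratin of differentiated enterocytes, at 1.64. Of 18 enterocyte transcription factors 5 rose and 5 fell, against 5 and 10 in thinned cells (median -0.55). Of all RNAs 16.4% were called higher and 6.86% lower, and in thinned cells 34.5% and 36.3%. Prdm1, a repressor known to separate suckling from adult enterocytes, rose by 2.81.

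Nutrient genes did not move as a block. Of all RNAs tested, 16.4% were called higher and 6.86% lower, and in thinned cells 34.5% and 36.3%. A list count near these shares is not read as a result. Of 22 lipid absorption genes 13 rose and 3 fell, against 11 and 8 of 21 in thinned cells. The 22 include Scarb1, which had 2 UMIs in all cells with none and passed the filter only through tip cells. Apoa1 rose by 0.67, whereas Fabp2, the intestinal fatty acid-binding protein, was not called (0.05, adjusted p = 0.831) and was lower in thinned cells (-0.27). Of 9 genes of sugar digestion and handling none rose and 6 fell (median -0.46), and all 9 fell in thinned cells (median -1.60). Sis, the disaccharidase sucrase-isomaltase, was 1810, 1695 and 1488 CPM in control tip cells against 2650, 2605 and 2165 CPM in cells with none, and 1843, 1889 and 1983 CPM against 3511, 2410 and 3000 CPM in the libraries labelled IE-HuR-/- (log2 difference -0.60). Of 15 purine and pyrimidine genes outside the rule 7 rose and 2 fell, a count that is not read as a result. Among the 15, Ampd3 and Slc29a3 had 0 and 1 UMIs in all cells with none and passed the filter only through tip cells. In thinned cells 5 rose and 7 fell of 13, and this count is not read as a result either. Of 12 peptide and amino acid transporters 3 rose and 2 fell, against 4 and 8 in thinned cells (median -1.15). Tmprss15, enteropeptidase, which activates trypsinogen, rose by 2.21. Of the 11 brush border peptidases 2 rose and 1 fell, near the shares over all RNAs. In thinned cells 3 of them rose and 7 fell (median -0.33). Of 4 bile acid genes of the distal intestine none rose and 3 fell, whereas in thinned cells 1 rose, Slc10a2 by 0.28 (adjusted p = 0.00686), and 3 fell.

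Nuclear genes of oxidative phosphorylation and ribosomal protein genes were lower in tip cells. Of 79 tested nuclear genes of oxidative phosphorylation 75 fell and 1 rose (median -0.71), and of 78 cytosolic ribosomal protein genes 74 fell and none rose (median -0.60). The fall held in thinned cells, with 78 of 79 and 77 of 78 lower. Of the 13 mitochondrially encoded genes all were called higher with TMM (median 0.58), 12 of them also in thinned cells and 4 without TMM. Their summed level without TMM scaling was lower in tip cells of control replicates 1 and 2 (135793 against 145568 CPM and 140305 against 153475 CPM) and higher in the other 4 libraries, so no direction is given for them. Cox4i1, a nuclear subunit of cytochrome c oxidase, was between 966 and 1332 CPM in tip cells and between 1315 and 2193 CPM in cells with none (log2 difference -0.55), whereas the log2 difference of mt-Co1, the mitochondrially encoded core subunit of the same enzyme, was 0.77. The nuclear gene that rose was Cox6b2, an isoform of a peripheral subunit, by 3.16. The median share of mitochondrial UMIs was between 13.1 and 14.9% in tip cells. It was between 1.43 and 16.5% in cells with none, and the part of that share in these differences was not tested.

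Because detection of the 5 genes rises with depth, the lists were also followed stepwise, from 0 to 5 genes, in cells thinned to 5000 UMIs each. The lower-villus list fell from a mean of 9174 CPM at 0 genes to 785 CPM at 5 genes in the controls and from 30630 to 3076 CPM in the libraries labelled IE-HuR-/-. Its level at 5 genes was between 0.0811 and 0.110 of that at 0 genes in every library. The list started higher in each library labelled IE-HuR-/- than in any control. Sugar genes fell to between 0.192 and 0.232, nuclear genes of oxidative phosphorylation to between 0.226 and 0.258, and ribosomal protein genes to between 0.257 and 0.368 of their level at 0 genes. In the other direction the tip landmarks reached between 2.76 and 3.99 times, immediate-early factors between 3.14 and 3.54 times and junction genes between 2.36 and 2.72 times their level at 0 genes. Purine genes outside the rule stood at between 0.952 and 1.08 times and mitochondrially encoded genes at between 0.945 and 1.27 times, and lay near their start.

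Single RNAs had steps of different shape. Egfr was 3.61, 7.65, 9.96, 19.3, 64.6 and 184 CPM at 0, 1, 2, 3, 4 and 5 genes in the libraries labelled IE-HuR-/- and 4.95, 7.58, 7.98, 15.7, 48.5 and 133 CPM in the controls, so most of its rise lay in cells with 4 or 5 genes. Cldn4 went from 4.51 CPM at 0 genes to 47.2 CPM at 2 genes and 1187 CPM at 5 genes in the controls. Sis fell at each step, from 3265 to 197 CPM in the controls and from 3674 to 237 CPM in the others. These are values of cells sorted by correlated genes, and no test was applied.

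**Figure D3:**
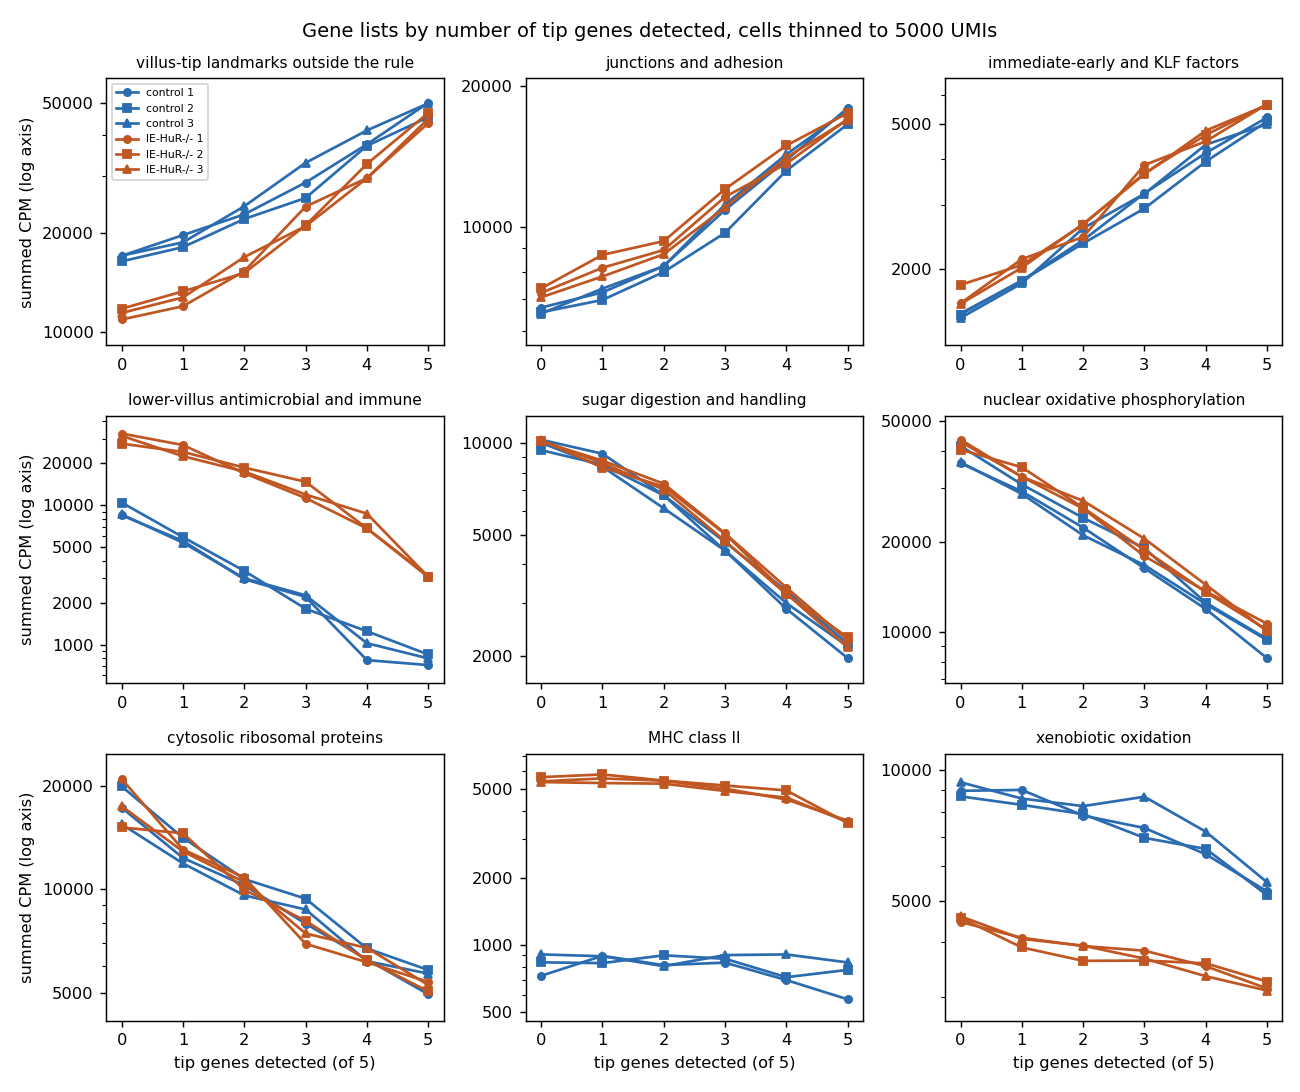
Summed CPM of gene lists against the number of the 5 tip genes detected (0 to 5), in cells thinned to 5000 UMIs; each line is 1 library, controls in blue and libraries labelled IE-HuR-/- in orange, on logarithmic vertical axes. Lower-villus, sugar and oxidative phosphorylation genes fall and tip landmarks and immediate-early factors rise under both labels.

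Tip cells of the libraries labelled IE-HuR-/- were then compared with those of control littermates. Of 12123 RNAs tested, 49.3% were called, 24.7% higher and 24.7% lower, and in 58.0% the libraries of the labels did not overlap. The median log2 difference was -0.03. Without TMM scaling it was -0.22 and the calls were 1466 higher and 5279 lower in place of 2991 and 2991, so that the balance of higher and lower RNAs depends on the scaling. In thinned cells 2388 of 7906 RNAs were called. The 12 largest rises and 12 largest falls, described next, kept their direction and call without TMM, with DESeq2 and in thinned cells.

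Acta1, the actin of skeletal muscle, rose most. It was 25.9, 20.7 and 17.2 CPM after TMM scaling in control tip cells and 1534, 1502 and 1442 CPM in tip cells labelled IE-HuR-/-, a log2 difference of 6.13 (standard error 0.194, adjusted p = 1.46e-05). Acta1 UMIs were found in 47.9% of all tip cells, and the 10 richest cells held 4.79% of them. Markers of fibroblasts and muscle summed to between 0.677 and 3.04 CPM in tip cells of these libraries and to between 7.21 and 15.9 CPM in the controls. In thinned cells Acta1 was between 12.3 and 33.7 CPM at each number of tip genes in the controls, and went from 479 CPM at 0 genes to 2053 CPM at 4 and 1844 CPM at 5 genes in the libraries labelled IE-HuR-/-.

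Other single genes were among the 12 largest rises. Saa1, serum amyloid A, was 4.55, 2.12 and 9.48 CPM in the controls and 306, 422 and 301 CPM in the others (log2 difference 6.04). Its UMIs were found in 14.1% of all tip cells, and the 10 richest cells held 25.8% of them. Mt1, metallothionein, was 129, 161 and 124 CPM against 1950, 2130 and 2126 CPM (3.91). Gpx2, the gastrointestinal glutathione peroxidase, differed by 2.80, as did Duoxa2, the maturation factor of the hydrogen peroxide-producing dual oxidase. No control library reached the level of any library of the other label for these genes, which the rule for named genes required. Muc4, a membrane mucin, rose by 3.55 and Car4, a surface carbonic anhydrase, by 3.11. Fabp6 was 433, 437 and 411 CPM against 2827, 3213 and 3306 CPM (2.87).

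Antigen presentation genes rose as a list. All 7 genes of MHC class II, which presents peptides to CD4+ T cells, were higher in tip cells labelled IE-HuR-/-, with a median log2 difference of 2.82 beside -0.03 for all RNAs, and 7 of 7 without TMM, with DESeq2 and in thinned cells. H2-Aa was 107, 122 and 109 CPM in the controls and 1026, 1082 and 1037 CPM in the others (3.22, adjusted p = 7.69e-16). H2-DMb1, part of the peptide exchange factor, differed by 3.18, H2-Eb1 by 2.82 and Cd74, the invariant chain, by 2.73. H2-Ab1 was between 197 and 220 CPM in the controls and between 1140 and 1176 CPM in the others. Markers of other cells that carry MHC class II were read in the same tip cells. Myeloid markers summed to between 1.84 and 2.76 CPM over all 6 libraries. B and plasma cell markers summed to 2.06, 2.16 and 0.737 CPM in the controls and 18.4, 10.4 and 15.8 CPM in the others, with Igkc the most abundant, and 3 of 4 tested were called higher. They thus moved with class II by label, and their part in it was not tested. Class II as a list summed to between 748 and 875 CPM in control tip cells and to between 4723 and 4879 CPM in the others, both without TMM scaling as all sums over lists here. Without the tip cells that held at least 0.5% of UMIs on other cell types' markers, 7 of 7 were higher as well (median 2.80).

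Interferon-stimulated genes did not move with class II. Of 12 tested 7 were lower and 2 higher (median -0.80), and of 9 tested in thinned cells 5 were lower and 3 higher. Ifit1 was 147, 165 and 151 CPM in the controls and 48.0, 40.1 and 54.1 CPM in the others (-1.70), and Ifit3 was between 11.2 and 13.9 CPM against 1.94 to 2.46 CPM (-2.48). Irf7, an interferon-induced transcription factor, was higher, by 0.55.

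Xenobiotic oxidation fell. Of 11 genes, mostly cytochromes P450 that oxidise drugs and lipids, 10 were lower and 1 higher, with a median log2 difference of -1.06, and the counts were the same with DESeq2 and without TMM, with 9 lower and 1 higher in thinned cells. Cyp2c29 was 220, 223 and 233 CPM in the controls and 11.04, 11.9 and 14.0 CPM in the others, a log2 difference of -4.19 (standard error 0.0790, adjusted p = 1.46e-13). Cyp3a11 was 2313, 2176 and 2394 CPM against 573, 575 and 598 CPM (-1.98). Cyp2j6 differed by -1.71, Cyp2b10 by -1.35, Cyp2c55 by -1.33 and Cyp3a13 by -0.44. Other enzymes were among the largest falls as well. Bche, butyrylcholinesterase, differed by -1.83, Aadac by -1.61 and the sulfotransferase Sult6b2 by -1.29. Slc6a20a, an importer of proline, differed by -1.30.

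Regional genes of the small intestine moved apart. S100g, the calcium-binding protein of proximal enterocytes, was 196, 119 and 266 CPM in the controls and 5.35, 5.12 and 3.20 CPM in the others, a log2 difference of -5.41 (standard error 0.467, adjusted p = 0.00107). In these tip cells the 10 richest held 35.1% of its UMIs. Of 9 tested proximal genes of iron and calcium uptake 6 were lower and 2 higher (median -0.72), with Fth1, ferritin heavy chain, lower by 0.72. All 4 tested distal genes of bile acid handling were higher (median 1.096). Slc10a2, the ileal bile acid importer, was between 43.3 and 49.5 CPM in the controls and between 114 and 156 CPM in the others (1.48), and Slc51a, part of the basolateral exporter, differed by 0.39. The methods name the middle of the small intestine for histology and for extracted protein and RNA, and no segment in the account of the single-cell libraries. Whether the segment sampled differed between the labels was not tested.

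Structural genes of the enterocyte rose modestly. Of 14 microvillus and keratin genes 13 rose and none fell (median 0.51), with 9 and none without TMM. Vil1, villin, was between 1463 and 1525 CPM in the controls and between 2214 and 2228 CPM in the others (0.57), Krt20 differed by 0.56 and Cldn7 by 0.60. Of 15 immediate-early factors 12 rose and 1 fell (median 0.59), with Egr1 at 1.40 and Klf4 at 0.39. Of 11 brush border peptidases 8 rose and 1 fell, with Anpep, aminopeptidase N, at 0.70 and Mep1b, a meprin subunit, at 0.74. These are small differences, and with no TMM scaling the counts were 9 and 1 for the immediate-early factors and 5 and 2 for the peptidases.

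Of the 10 tip landmarks 6 were higher and none lower by label (median 0.25), against 5 higher and 3 lower without TMM. Of all RNAs tested by label, 24.7% were called higher and 24.7% lower. Egfr was 38.6, 29.7 and 39.1 CPM in the controls and 73.5, 70.4 and 67.6 CPM in the others (0.98), whereas Apoa4 was not called (-0.17, adjusted p = 0.0581). Prdm1 was between 32.2 and 36.2 CPM against 64.3 to 68.1 CPM (0.95), and Id2, an inhibitor of bHLH factors, was lower by 0.69. Of 22 lipid genes 12 were higher and 4 lower, against 6 and 10 without TMM. Fabp2 differed by 0.86, whereas Cd36, a fatty acid translocase, was between 122 and 126 CPM against 50.3 to 53.8 CPM (-1.24). Upp1, uridine phosphorylase, was higher by 1.31. Of 78 ribosomal protein genes 21 were higher and none lower, but 1 and 21 without TMM and 2 and 21 in thinned cells. Of 79 nuclear genes of oxidative phosphorylation 59 were higher and 3 lower, and 21 and 10 without TMM. No direction is given for those groups.

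Antimicrobial genes of the lower villus differed by label in tip cells, gene by gene. Reg3b was 1620, 2191 and 1995 CPM in the controls and 10782, 12793 and 11043 CPM in the others (2.58, adjusted p = 0.000101), and Reg3g differed by 2.27. Reg1, from the same family, was 731, 579 and 491 CPM against 266, 229 and 239 CPM (-1.30). In cells with at least 4 of the 5 genes Reg1 was not called (-1.29, adjusted p = 0.109), nor in cells with at most 15% mitochondrial UMIs (-0.92, adjusted p = 0.0521). Of the 8 genes of the list 4 were higher and 2 lower, beside 24.7% of all RNAs called each way.

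**Figure D4:**
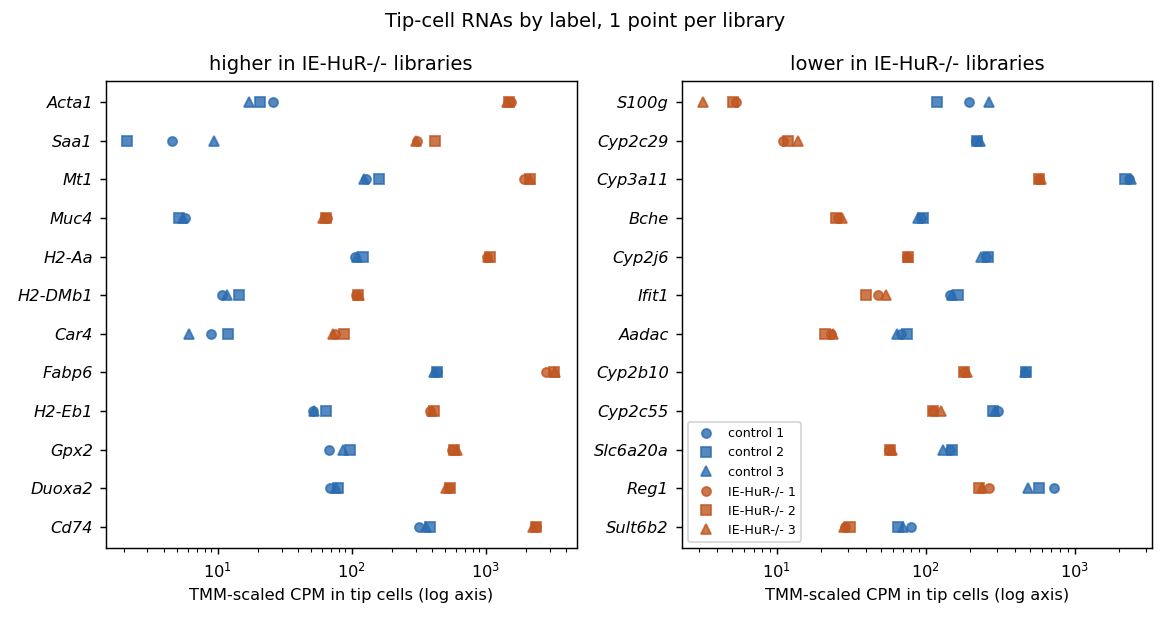
TMM-scaled CPM (logarithmic axis) of the 12 largest rises and 12 largest falls by label in tip cells; each point is 1 library, with the control littermates and the libraries labelled IE-HuR-/- in separate colours. The 3 libraries of each label lie close together, with the widest spread for Saa1 and S100g. The 24 RNAs were chosen among those whose libraries do not overlap by label.

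RNAs of other cell types differed strongly between single libraries. Paneth cell markers summed to 37.1, 2394 and 7235 CPM in tip cells of control replicates 1, 2 and 3 and to 40.8, 73.6 and 38.1 CPM in the others, with Defa24 the most abundant in control replicates 2 and 3. The 10 richest tip cells held 99.1% of the Defa24 UMIs. None of the 8 tested Paneth markers was called by edgeR, and 2 had an unadjusted p under 0.05, at a median log2 difference of -6.67, whereas DESeq2 called 7 lower. Erythroid markers summed to 423, 3259 and 348 CPM in the controls and 214, 20.1 and 236 CPM in the others, chiefly Hbb-bs. Enteroendocrine markers summed to 1322, 1071 and 3283 CPM against 697, 1712 and 1484 CPM, and goblet markers to 463, 707 and 766 CPM against 926, 455 and 453 CPM. The Paneth sums were thus highest in control replicates 2 and 3 and the erythroid sum in control replicate 2, and the 12 largest rises and 12 largest falls by label kept their direction and call without cells that held such markers. Without these cells 6012 RNAs were called by label in place of 5982.

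Whether a difference by label was larger in tip cells than in enterocytes with none of the 5 genes was tested as an interaction. It was called for 0.566% of the 10076 RNAs, 0.308% higher and 0.258% lower, in place of which 14 RNAs higher and 49 lower were called without TMM. The test rests on 22 cells with none of the 5 genes in the libraries labelled IE-HuR-/-, and leaving out single libraries moved its count. It called 35 RNAs when control replicate 2 was left out and 9 when control replicate 3 was. When IE-HuR-/- replicate 1 or 3 was left out, it called 18 and 122. Enpp3 was the RNA with the smallest p among those named. Its mean was 1434 CPM in control and 1276 CPM in IE-HuR-/- tip cells, but 264 CPM and 48.7 CPM in cells with none (log2 difference of differences 2.23, standard error 0.369, adjusted p = 7.5e-06). In thinned cells it was 0.63 (adjusted p = 2.1e-07). Most differences by label were not shown to be particular to tip cells. In thinned cells Reg3b was 6.21 times the control level at 5 genes and 5.06 times at 0 genes, and class II 4.89 and 6.64 times, both without a test.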

How the data were processed

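From 6 single-cell libraries, 3 per label, the authors deposited UMI counts by barcode and gene, raw and without normalization, for 32285 features. The file headers name Cell Ranger 6.1.2 and the submitters' processing notes mm10, whereas the methods name a human reference. All barcodes deposited had at least 500 UMIs.

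Cells were chosen as described above, in Python 3.11.15. Members, gene lists and the rule for named genes were chosen with earlier results of these data known. Counts were summed per library and cell group and fitted by robust quasi-likelihood in edgeR 4.0.16 (R 4.3.3) after TMM scaling. Low RNAs were removed by filterByExpr (count 10, total 15), and a Benjamini-Hochberg adjusted p under 0.05 was called. The comparison of tip cells with enterocytes without the 5 genes had the library as a block. The 11 genes of the gate, Muc2 and Ptprc were left out of counts of calls. Counts were not scaled to length, and the most abundant members of a list are those with the most UMIs. Named genes were the called RNAs of largest change, 12 up and 12 down, with a mean of at least 50 CPM and the same direction in all 6 libraries or, by label, without overlap, the 6 largest interactions each way, and in each of 31 lists the 2 most abundant members and the 2 of largest change. Genes named beyond this rule within a list were chosen after their values were seen. No test by label is given for the share of tip cells or the 5 genes, which the rule used.

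Alternatives were DESeq2 1.42.0, no TMM scaling, mt- genes left out, no low-count filter, thinning to 5000 UMIs, at least 4 of the 5 genes, at most 15% mitochondrial UMIs, the 5% of cells with the most UMIs left out, the replicate block and each library left out. Chosen after seeing the data were the comparison with cells that had at most 1 of the 5 genes and the removal of cells with at least 0.5% of UMIs on other cell types' markers. Tested on simulated data in which 200 RNAs had a log2 change of 2, the fit by label recovered 200 of 200 tested (5.21% false calls), tip against none 152 of 190 (9.52%) and the interaction 72 of 198 (4.00%). No 2 libraries were copies, with a chi-square per degree of freedom of at least 5.22 between tip sums of 1 label. Counting intervals cover counting error only.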

Additional observations from a re-analysis of the deposited data

Results flagged for a closer look

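For 12 RNAs the difference by label was itself different between tip cells and enterocytes with none of the 5 genes, by the interaction term of edgeR. Enpp3 had a value of 2.233 on the log2 scale, with 1434 and 1276 CPM in control and IE-HuR-/- tip cells and 264 and 48.7 CPM in cells with none. It is the only one of the 12 that kept its call under every alternative but at most 15% mitochondrial UMIs. Npl, a sialic acid lyase, had 3.597, Susd2 3.116, Ceacam18 2.703, Gclc 2.205 and Stag2 2.02. For these RNAs the mean in tip cells was higher under the IE-HuR-/- label and the mean in cells with none was lower. Npl, for example, had means of 32.9 and 71.6 CPM in tip cells and 36.9 and 7.53 CPM in cells with none. Gclc, a subunit of the enzyme that starts glutathione synthesis, was called in thinned cells as well, at 0.88 (adjusted p = 0.000949), and Npl was not, at 0.62 (adjusted p = 0.0963). Susd2 (0.25), Ceacam18 (0.50) and Stag2 (0.035) were not called in thinned cells either. Gclc lost its call under 7 alternatives, such as at most 15% mitochondrial UMIs (1.78, adjusted p = 0.213). Ceacam18 lost it under 10, Stag2 under 8, Npl under 4 and Susd2 under 3.

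In the other direction Defa30 had -9.034, Spink4 -4.365, Cotl1 -3.893, Ctsh -2.806, Sprr2a3 -2.536 and Dmbt1 -2.33. Each lost its call when single libraries were left out. Defa30 was -1.39 without IE-HuR-/- replicate 2, Spink4 -1.85 without control replicate 3 and Dmbt1 -1.21 without IE-HuR-/- replicate 1. The 10 richest tip cells held 99.5% of the Defa30 UMIs and 75.3% of those of Spink4. Dmbt1, a secreted scavenger protein, had means of 12.6 and 57.8 CPM in tip cells and 6.08 and 133 CPM in cells with none. In thinned cells Dmbt1 (1.75, edgeR adjusted p = 0.00242) and Spink4 (1.44, adjusted p = 0.0240) were called in the opposite direction. Sprr2a3 was opposite there without a call (0.32), and Cotl1 (-1.13) and Ctsh (-0.59) were not called. These values rest on 22 cells with none of the 5 genes under the IE-HuR-/- label. Against enterocytes with at most 1 of the 5 genes, only Enpp3 kept its call among the RNAs of both directions. Npl was 1.08 there, Susd2 0.68, Ceacam18 0.59, Gclc 0.55 and Stag2 0.45. Defa30 was -6.97, Spink4 -1.43, Ctsh -0.61, Dmbt1 -0.35 and Cotl1 -0.32, and Sprr2a3 was opposite (0.29). That comparison had more cells on the lower side but also took in cells with 1 of the 5 genes. The part of the number of cells alone was not tested.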

How the results depend on the processing

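With tip cells against enterocytes with none of the 5 genes, 2348 RNAs were called. In thinned cells 5189 were called and against cells with at most 1 of the 5 genes 5136, where more cells stood on the lower side. Leaving out 1 library gave between 1830 and 2153. By label 5982 were called, 2388 in thinned cells and between 5074 and 5789 with 1 library left out. The interaction called 57, and 10 with DESeq2, 284 in thinned cells, 36 with at most 15% mitochondrial UMIs, 25 against at most 1 gene and between 9 and 122 with 1 library left out. At an unadjusted p under 0.05 the interaction had 859. With 1 library left out the held-out log2 ratios were between 5.74 and 6.24 for Ada, 4.73 and 5.07 for Clca4a, 6.06 and 6.45 for Ly6m, 4.77 and 5.33 for Nt5e and 5.40 and 5.79 for Slc28a2, where 5 libraries allow no exact p under 0.0625. The difference in share was between 10.97 and 15.4 points with 1 library left out, 19.1 at 4 genes and 5.08 at 2 genes.

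Replicate numbers did not pair the samples. Same-numbered libraries had correlations of deviations of 0.00260, -0.189 and -0.120. By label the fit with the replicate block called 5751, and without the library block tip against none called 2737 and the interaction 33.

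Values that reversed were Reg4 in thinned cells (-0.89), Gda (-0.11) and Fabp2 (-0.27), all tip against none. By label they were Elavl1 without TMM (-0.015) and thinned (-0.090) and Sct without cells with other cell types' markers (1.35), and for the interaction Spink4 (1.44), Dmbt1 (1.75) and Sprr2a3 (0.32) in thinned cells and Sprr2a3 against at most 1 gene (0.29). The causes were not tested. Of the other values of single RNAs, 890 tip against none, 832 by label and 118 interaction values kept their direction and side of the threshold and 40, 8 and 72 lost the call.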
